A study of Mus musculus with 19 samples.

Results

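The 9 genes described here are the TGF-beta ligands Tgfb1, Tgfb2 and Tgfb3, the receptors Tgfbr1, Tgfbr2 and Tgfbr3, the latent binding proteins Ltbp1 and Ltbp2, and the early response gene Klf10. They were taken by gene symbol from 36172 genes measured by RNA sequencing in whole mouse ovary. Each of the 9 symbols had its row in the table, and all 9 were among the 15518 genes that passed the filter on low counts. The ovaries came from female C57BL/6 mice, an inbred strain, with no transgene and no treatment named in the labels. The 3, 6 and 9 month groups hold 5 libraries each and the 12 month group 4. No label says that each library is a separate mouse, so p-values measure the spread between libraries, which may be technical. Library totals ran from 10851519 to 14302207 estimated counts, and a member had between 259 and 5957 counts in a library, so counting error was at most 6.21% of a value.

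TGF-beta is made as a dimer that stays bound to its own propeptide and is stored in the extracellular matrix by latent binding proteins until integrins, proteases or thrombospondin release it. The free ligand binds the type II receptor, which then phosphorylates the type I receptor, and the type I receptor phosphorylates the transcription factors SMAD2 and SMAD3, which enter the nucleus with SMAD4. In the ovary the pathway is known for acting on granulosa cell growth and steroid output, on the stroma around follicles and on the building of extracellular matrix.

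Levels are given in CPM (library sizes multiplied by TMM factors) and, where genes are compared with each other, CPM per kilobase (kb) of the longest annotated transcript. A gene is said to have risen or fallen where edgeR's quasi-likelihood test gave a Benjamini-Hochberg adjusted p below 0.05 over all 15518 genes. The 12 month ovaries had higher Tgfb2 and Tgfbr2 than the 3 month ovaries, the 9 month ovaries had higher Tgfbr2 and Klf10 than the 3 month ovaries, and the 9 month ovaries had higher Klf10, Ltbp1 and Tgfbr2 than the 6 month ovaries. In whole-ovary RNA, more or fewer cells of a type and more or less RNA per cell cannot be told apart. The ovary markers are present: the summed level of 11 granulosa genes was 1228 to 4205 CPM over the libraries of all ages. Of 12 oocyte genes 11 fell at 12 months, with 59.2 to 141 CPM summed over the list against 301 to 474 CPM at 3 months. Lymph node and lymphocyte genes stood apart in 3 libraries, 9 month replicates 1 and 2 and 12 month replicate 2, where the 13 genes summed to up to 455 CPM, against 74.9 to 89.9 CPM in the 3 month libraries. Liver genes also varied: 6 of them summed to 88.2, 198, 641, 41.3 and 13.8 CPM in the 9 month libraries, highest in replicates 2 and 3, against 24.5 to 43.1 CPM at 3 months. Alb, the albumin gene of that list, was at 3.04 CPM or more in every 9 month library. Its highest value was 1.02 CPM at 3 months, 5.12 CPM at 6 months and 3.60 CPM at 12 months. Apoa1 of the same list ran from 8.52 to 93.2 CPM at 9 months, against 22.8 to 41.8 CPM at 3 months.

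The type I receptor Tgfbr1 was the most abundant member per length, with a mean of 47.3 ± 7.11 CPM per kb (SD, n = 19). Next came the latent binder Ltbp1 with 40.1 CPM per kb and the co-receptor Tgfbr3 with 30.5 CPM per kb. Tgfb3 at 22.6 and Tgfbr2 at 21.7 CPM per kb were followed by Klf10 at 17.8 and Tgfb1 at 14.9 CPM per kb. Tgfb2 at 5.43 and Ltbp2 at 4.38 CPM per kb were the lowest of the 9. Not every neighbour in that order was separated. Tgfbr1 was above Ltbp1 in 15 of 19 libraries, Ltbp1 was above Tgfbr3 in 11 and Tgfb3 was above Tgfbr2 in 12, and the ranges of each of these pairs overlapped. Tgfb1 was above Tgfb2 in all 19 libraries.

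The DNA around annotated starts is shown for Tgfb2, Tgfbr2 and Ltbp1, each of which rose in at least 1 comparison. RefSeq promoter windows, 250 bases before to 50 after a start on GRCm38.p6 (the mm10 build), were found for 6 of the 9 members, with 8 windows in all, and not for Tgfb3, Tgfbr3 and Klf10. The letters of 7 motifs were searched on both strands, and capitals mark the matches. The windows of Tgfb2 (chr1:186705940-186706239, minus strand), Tgfbr2 (chr9:116175314-116175613, minus strand) and Ltbp1 (a first start at chr17:75005279-75005578 and a second at chr17:75178531-75178830, both plus strand) are printed 5′ to 3′.
Tgfb2: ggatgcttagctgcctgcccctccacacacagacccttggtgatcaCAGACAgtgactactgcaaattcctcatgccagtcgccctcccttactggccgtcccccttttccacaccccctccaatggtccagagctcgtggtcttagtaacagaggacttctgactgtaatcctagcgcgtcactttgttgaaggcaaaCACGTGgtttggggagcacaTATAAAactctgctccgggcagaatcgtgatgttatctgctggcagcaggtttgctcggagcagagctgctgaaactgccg
Tgfbr2: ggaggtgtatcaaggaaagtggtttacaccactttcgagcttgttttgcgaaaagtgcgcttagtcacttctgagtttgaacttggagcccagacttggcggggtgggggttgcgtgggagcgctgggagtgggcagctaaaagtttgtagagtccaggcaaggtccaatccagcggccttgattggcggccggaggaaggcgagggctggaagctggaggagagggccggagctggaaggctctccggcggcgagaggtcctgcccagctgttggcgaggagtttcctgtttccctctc
Ltbp1 first start: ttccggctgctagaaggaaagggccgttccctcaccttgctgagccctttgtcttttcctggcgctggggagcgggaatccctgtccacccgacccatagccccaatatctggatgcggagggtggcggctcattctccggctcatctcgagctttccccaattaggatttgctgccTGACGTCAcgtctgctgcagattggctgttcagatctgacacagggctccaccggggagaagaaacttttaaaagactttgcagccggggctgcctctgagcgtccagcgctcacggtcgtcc
Ltbp1 second start: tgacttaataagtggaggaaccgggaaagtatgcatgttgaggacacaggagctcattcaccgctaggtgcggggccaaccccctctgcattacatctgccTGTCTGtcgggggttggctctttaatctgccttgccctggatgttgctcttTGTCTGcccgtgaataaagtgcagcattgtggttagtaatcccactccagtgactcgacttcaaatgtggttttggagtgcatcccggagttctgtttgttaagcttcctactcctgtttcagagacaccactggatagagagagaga

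The SMAD-binding palindrome GTCTAGAC was in none of the 8 windows, and in 0.213% of the 32851 windows of all genes. The CAGA box core CAGACA, the short element that SMAD3 and SMAD4 bind, began at base -204 of the Tgfb2 window. It occurred at -149 and -98 of the second Ltbp1 window, both there on the other strand. The core was also at -203 of the second Tgfbr1 window, not printed here, and Tgfbr1 passed in no comparison. That core is in 21.0% of all windows. Tgfb2 also had an E-box (CACGTG, in 7.15% of all windows) at -51 and a TATA box (TATAAA, in 13.6%) at -31. The first Ltbp1 window held a cAMP response element (TGACGTCA, in 1.79%) at -73. The Tgfbr2 window held none of the 7 motifs, and no AP-1 site (TGANTCA, in 7.81%) was in any of the 4 printed windows. GC boxes (GGGCGG, in 35.7%) were absent from these 4 windows, while the Tgfb1 window held 6. These are matches of letters, with no measurement of binding.

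Among the 3 ligands, Tgfb2 differed between the oldest and the youngest ovaries. Tgfb2 (NCBI gene 21808, chr1:186622787-186709697) encodes the isoform best known from the developing heart and skeleton. It had 19.4, 25.5, 20.1, 24.6 and 23.5 CPM in the 3 month libraries and 28.0, 30.7, 22.9, 22.7 and 26.6 CPM in the 6 month libraries. The 9 month libraries had 37.7, 28.3, 25.4, 23.6 and 26.0 CPM, and the 12 month libraries 42.3, 33.7, 45.6 and 21.0 CPM. At 12 months 3 of the 4 libraries were above every 3 month library, and the fourth was among the lower 3 month values, so the ages overlapped. The mean ± SD of Tgfb2 was 35.7 ± 10.98 CPM over the 4 libraries of 12 months and 22.6 ± 2.72 CPM over the 5 of 3 months, a log2 change of 0.66 ± 0.18 (SE; edgeR adjusted p = 0.0148). The linear trend over all 4 ages was 0.62 ± 0.16 on the log2 scale over 9 months (edgeR adjusted p = 0.00808). Without 12 month replicate 3 the log2 change of Tgfb2 at 12 months was 0.52 and no longer passed (edgeR adjusted p = 0.0637).

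Tgfb1 (NCBI gene 21803, chr7:25687002-25705077), the isoform made by many immune and stromal cells, varied as much within an age as between ages. Its libraries ran from 28.0 to 45.5 CPM at 3 months, 28.0 to 41.4 at 6 months, 33.3 to 52.3 at 9 months and 35.8 to 60.5 CPM at 12 months. The highest value, 60.5 CPM, was 12 month replicate 2, 1 of the 3 libraries with lymph node transcripts. The others, 9 month replicates 1 and 2, had 34.8 and 35.8 CPM, within the 3 month range. The log2 change at 12 months was 0.38 ± 0.18 (edgeR adjusted p = 0.129), and without the 3 lymph node libraries it was 0.23. Leaving out a library each gave 0.23 to 0.49. The trend of Tgfb1 did not pass with all libraries (0.41 ± 0.17, edgeR adjusted p = 0.069) and did without 3 month replicate 2 (0.52, edgeR adjusted p = 0.024). Tgfb3 (NCBI gene 21809, chr12:86056743-86079041), an isoform known for its part in palate closure, had 71.2 to 80.1 CPM at 3 months, 64.0 to 86.2 at 6 months, 63.0 to 97.8 at 9 months and 61.7 to 86.4 CPM at 12 months. Its 3 month libraries lay inside the 12 month range. The log2 change was 0.00 ± 0.13 (edgeR adjusted p = 0.997), and its sign differed between settings.

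Tgfb3 made up most of the ligand transcript at 3 months. Per kb it was 54.8% ± 5.14 of the 3 ligands at 3 months (SD, n = 5), 54.9% at 6 months, 53.2% at 9 months and 46.8% ± 5.28 at 12 months (SD, n = 4). Tgfb1 made up 38.1% ± 4.94 at 12 months against 34.2% ± 5.09 at 3 months. Tgfb2 was the smallest part in every library, with 8.57% to 20.4% at 12 months against 9.83% to 12.8% at 3 months. The shares of all 3 ligands overlapped between these ages. The sum of the 3 ligands was 43.2 to 53.0 CPM per kb at 12 months and 37.6 to 43.7 CPM per kb at 3 months.

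**Figure D1:**
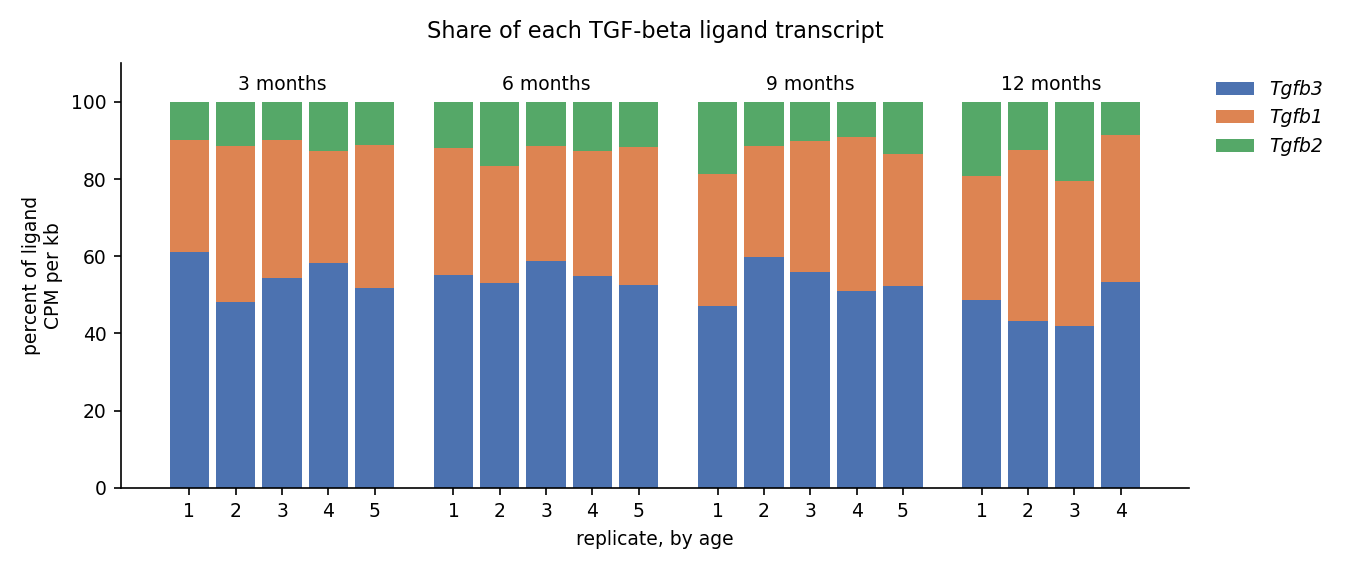
Stacked bars give the share of Tgfb3, Tgfb1 and Tgfb2 in the summed CPM per kb of the 3 ligands (percent, vertical axis) in each library, ordered by age and replicate. Tgfb2 is the smallest part in every bar, between 8.57% and 20.4%.

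Tgfbr2 was the member that rose in most comparisons. Tgfbr2 (NCBI gene 21813, chr9:116087695-116175363) encodes the type II receptor, the kinase that binds the ligand and switches on the type I receptor. It had 145, 135, 147, 158 and 138 CPM at 3 months and 179, 161, 168, 159 and 153 CPM at 6 months. It had 220, 234, 187, 201 and 174 CPM at 9 months and 226, 211, 185 and 148 CPM at 12 months. Every 9 month library was above every 3 month library, while at 12 months replicate 4 fell back among the 3 month values. Tgfbr2 averaged 203 ± 24.3 CPM at 9 months and 145 ± 9.22 CPM at 3 months (SD, n = 5 each), a log2 change of 0.49 ± 0.10 (edgeR adjusted p = 0.00143). At 12 months it averaged 193 ± 34.5 CPM (SD, n = 4), a log2 change of 0.41 ± 0.10 against 3 months (edgeR adjusted p = 0.00846). Both comparisons share the 3 month libraries. Tgfbr2 also rose along the trend, by 0.49 ± 0.11 (edgeR adjusted p = 0.00262), and at 9 months against 6 months, by 0.31 ± 0.10 (edgeR adjusted p = 0.0331). This last call was lost when any of 5 libraries was left out (0.27 to 0.30, edgeR adjusted p = 0.05004 to 0.083). They were replicates 2, 4 and 5 of 6 months and replicates 1 and 2 of 9 months. It was also lost without the 3 lymph node libraries (0.21, edgeR adjusted p = 0.163) and with the authors' log2 values (limma adjusted p = 0.0641). The same held without the 2 libraries highest in liver transcripts (edgeR adjusted p = 0.105). With the smooth muscle and macrophage lists as covariates, settings added after seeing the data, it did not pass either (edgeR adjusted p = 0.245 and 0.518).

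Markers of several cell types were higher at the ages where Tgfbr2 was higher. Of 10 macrophage genes 5 rose at 12 months and 8 at 9 months, and none fell. Their summed level was 591 to 1216 CPM at 9 months, 699 to 1099 CPM at 12 months and 447 to 762 CPM at 3 months. The 12 month library with the lowest macrophage sum, replicate 4 with 699 CPM, also had the lowest Tgfbr2 of its age, 148 CPM. By contrast, 3 month replicate 1 had the highest macrophage sum of its age, 762 CPM, and 145 CPM of Tgfbr2. All 9 endothelial genes rose at 9 months against 3 months, with sums of 557 to 664 CPM at 9 months against 395 to 446 CPM at 3 months that did not overlap. Of 8 fibroblast and stroma genes 5 rose and 1 fell, with sums of 4565 to 7142 CPM at 9 months against 3479 to 4071 CPM at 3 months. With the macrophage list as a covariate, a setting added after seeing the data, the log2 change of Tgfbr2 was 0.16 at 12 months (edgeR adjusted p = 0.194) and 0.16 at 9 months (edgeR adjusted p = 0.304). The chemokine receptor gene Ccr2, found on monocytes, and Vsir, an immune checkpoint gene listed as 4632428N05Rik, were the genes most like Tgfbr2 over the 19 libraries, with Pearson r of 0.93 and 0.94 on log2 CPM. What part macrophage, endothelial or stromal transcripts have in the Tgfbr2 values was not tested.

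The other receptors passed in no comparison. Tgfbr1 (NCBI gene 21812, chr4:47353222-47414926), the type I receptor kinase, had 234 to 315 CPM at 3 months, 225 to 286 at 6 months, 222 to 355 at 9 months and 223 to 339 CPM at 12 months. Its log2 change at 12 months against 3 months was 0.05 ± 0.14 (edgeR adjusted p = 0.834). Tgfbr3 (NCBI gene 21814, chr5:107106567-107289629) encodes betaglycan, a co-receptor that presents TGF-beta2 to the type II receptor and also holds inhibin. It had 148 to 190 CPM at 12 months and 166 to 197 CPM at 3 months, a log2 change of -0.10 ± 0.09 (edgeR adjusted p = 0.445). Between 12 and 9 months Tgfbr3 differed by -0.23 ± 0.09 on the log2 scale, with an unadjusted p = 0.0147 and an edgeR adjusted p = 0.26. The ratio of Tgfbr2 to Tgfbr1 per kb was 0.513 ± 0.144 at 12 months (SD, n = 4) and 0.391 ± 0.0624 at 3 months (SD, n = 5), with ranges that overlapped.

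**Figure D2:**
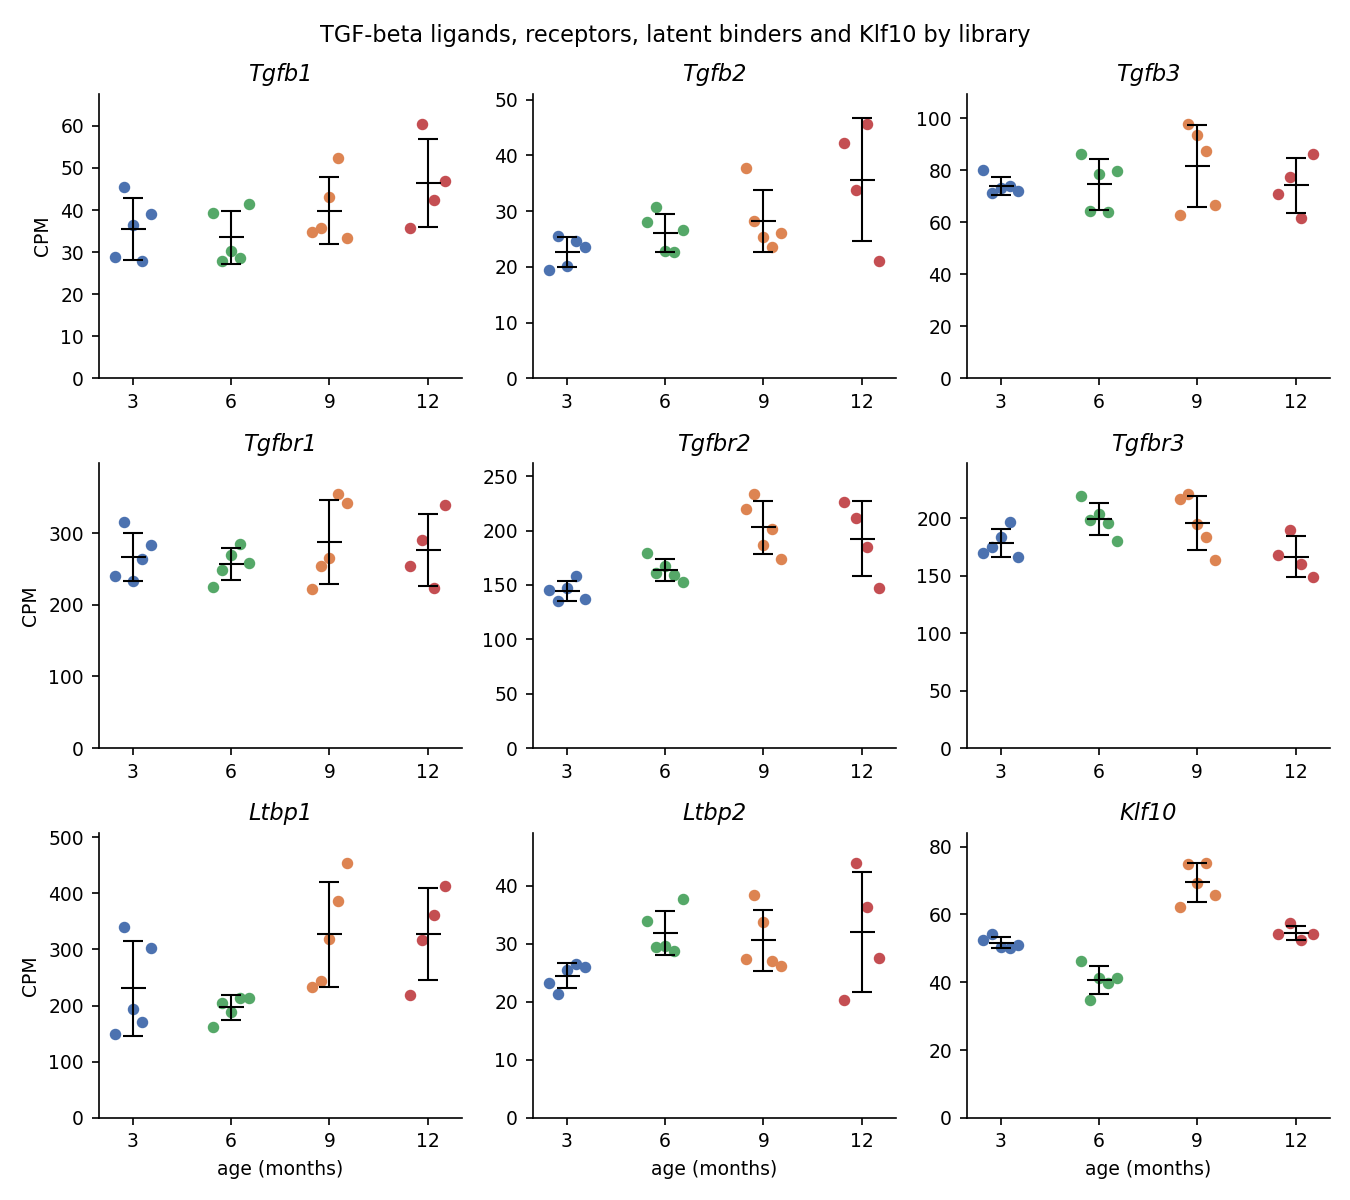
CPM (vertical axes, each from 0) of the 9 genes in each of the 19 libraries, by age in months, with points for libraries and bars for the mean ± SD of an age. The 9 month points of Tgfbr2 and Klf10 lie above all 3 month points, and the 3 month points of Ltbp1 spread from 149 to 340 CPM.

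Ltbp1 (NCBI gene 268977, chr17:75005480-75392512), which ties latent TGF-beta to the matrix, had the widest spread among young ovaries. It had 149, 340, 193, 171 and 303 CPM at 3 months, a coefficient of variation of 36.7%, while Klf10 at that age had 3.22%. The 6 month libraries had 161, 205, 189, 214 and 214 CPM, the 9 month libraries 234, 245, 318, 386 and 453 CPM, and the 12 month libraries 219, 317, 362 and 413 CPM. All 9 month libraries were above all 6 month libraries, whereas 3 month replicates 2 and 5 were above all 6 month libraries and within the ranges of 9 and 12 months. Ltbp1 averaged 327 ± 93.5 CPM at 9 months and 197 ± 22.3 CPM at 6 months (SD, n = 5 each), a log2 change of 0.73 ± 0.24 (edgeR adjusted p = 0.0411). This call was lost when any of 8 libraries was left out, namely all 5 of 6 months and replicates 3, 4 and 5 of 9 months (0.60 to 0.77, edgeR adjusted p = 0.0639 to 0.0824). It was also lost without the count filter (edgeR adjusted p = 0.0598) and with the authors' log2 values (limma adjusted p = 0.0605). The same held with the oviduct and smooth muscle covariates (edgeR adjusted p = 0.0542 and 0.126). It also held without the 2 libraries highest in liver transcripts (edgeR adjusted p = 0.0688). Against 3 months, Ltbp1 changed by 0.50 ± 0.25 at 12 months (edgeR adjusted p = 0.153), and the trend of 0.67 ± 0.25 had an edgeR adjusted p = 0.0501. Without 3 month replicate 2 the trend was 0.87 and passed (edgeR adjusted p = 0.0136), as it did without 3 month replicate 5, 9 month replicate 1 or 12 month replicate 1 (0.81, 0.70 and 0.78).

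The acute phase gene Saa2 was the gene most like Ltbp1 over the 19 libraries, with a Pearson r of 0.90 on log2 CPM, as a description. Saa2 was low, with 0.16 to 0.44 CPM at 6 months and 0.0 to 4.86 CPM at 3 months. Its highest value was 8.07 CPM, at 9 months. Ltbp2 (NCBI gene 16997, chr12:84783212-84876558) binds elastic microfibrils and, unlike its relatives, is not known to bind latent TGF-beta. It had 20.3, 43.8, 36.4 and 27.5 CPM at 12 months and 23.2, 21.3, 25.5, 26.5 and 26.1 CPM at 3 months. The 12 month libraries lay on both sides of the 3 month libraries, and the log2 change was 0.39 ± 0.17 (edgeR adjusted p = 0.107). Without 12 month replicate 1, the lowest library, it was 0.55 and passed (edgeR adjusted p = 0.0173). Without the 3 lymph node libraries, which hold the highest 12 month value, it was 0.20 (edgeR adjusted p = 0.359). At 6 months Ltbp2 had 28.8 to 37.7 CPM, above all 3 month libraries, with a log2 change of 0.38 ± 0.16 that did not pass (edgeR adjusted p = 0.459). Between 3 and 6 months 1.78% of all genes tested were higher without overlap. The ratio of Ltbp1 to Ltbp2 per kb averaged 9.75 at 3 months (6.51 to 16.2), 6.33 at 6 months (4.81 to 7.53), 11.3 at 9 months (6.46 to 17.5) and 10.9 at 12 months (7.33 to 15.2), and the range of each age overlapped that of 3 months.

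Klf10 (NCBI gene 21847, chr15:38291464-38300711), a zinc finger repressor first known as a TGF-beta inducible early gene, followed no straight line with age. It had 52.4, 54.2, 50.5, 50.1 and 51.0 CPM at 3 months and 46.3, 34.6, 41.1, 39.9 and 41.4 CPM at 6 months. It had 62.3, 75.0, 69.3, 75.0 and 65.7 CPM at 9 months and 54.3, 57.5, 52.4 and 54.1 CPM at 12 months. The 6 month libraries were below, and the 9 month libraries above, every library of the other ages. Klf10 rose at 9 months against 6 months by 0.77 ± 0.07 on the log2 scale (edgeR adjusted p = 7.11e-06), and this call was kept in all 31 other settings. It also rose at 9 months against 3 months, by 0.43 ± 0.07 (edgeR adjusted p = 0.000378). At 12 months against 3 months the difference was 0.08 ± 0.07 (edgeR adjusted p = 0.461).

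The lower Klf10 of 6 months against 3 months, -0.35 ± 0.07 on the log2 scale, did not pass in edgeR (adjusted p = 0.138) but did in DESeq2 (adjusted p = 0.00697) and in limma-voom (adjusted p = 0.012). Likewise the difference of 12 months against 9 months, -0.35 ± 0.07, did not pass in edgeR (adjusted p = 0.0645) and did in DESeq2 (adjusted p = 0.00298). Leaving out 9 month replicate 5 made it pass in edgeR (-0.38, adjusted p = 0.0196). Klf10 is known to cycle with the circadian clock in mouse liver, and the labels used here give no time of day. The genes most like Klf10 over the 19 libraries were Kctd21, a partner of the CUL3 ubiquitin ligase, and Nr1d2, the clock repressor REV-ERB beta, with Pearson r of 0.94 and 0.90 on log2 CPM. Nr1d2 averaged 186 ± 16.1 CPM at 3 months, 167 ± 14.04 at 6 months, 264 ± 27.7 at 9 months (SD, n = 5 each) and 235 ± 24.6 CPM at 12 months (SD, n = 4). Its mean was lowest at 6 months and highest at 9 months, as was that of Klf10, and what part time of day has in either was not tested.

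**Figure D3:**
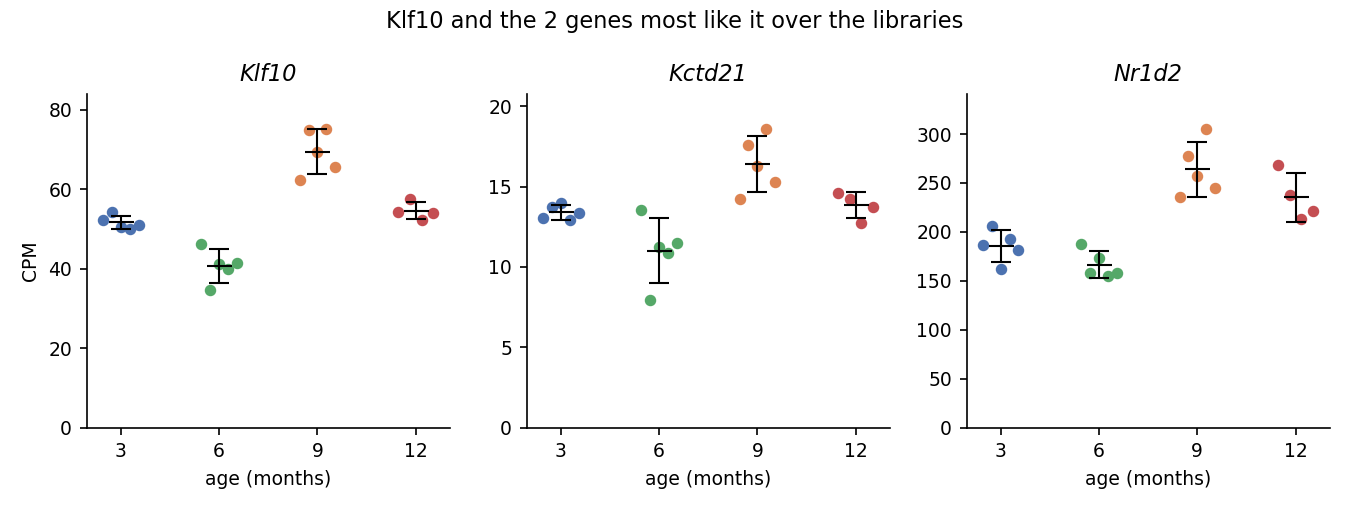
CPM (vertical axes, from 0) of Klf10, Kctd21 and Nr1d2 in each library by age in months, with bars for the mean ± SD. All 3 genes have their lowest mean at 6 months and their highest at 9 months, where Klf10 ran from 62.3 to 75.0 CPM.

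Counted together, 2 of the 9 members rose at 12 months against 3 months and none fell, while of all genes tested 22.4% changed, 10.9% rose and 11.5% fell. The median log2 change of the members was 0.38 at 12 months, against 0.02 over all genes tested, with 8 of the 9 values above 0 against 53.0% of all genes. The 8 include Tgfb3 at 0.0008 ± 0.13 and Tgfbr1 at 0.05 ± 0.14, whose signs differed between settings. No member was without overlap between 12 and 3 months, whereas 6.72% of all genes were higher and 9.75% lower without overlap. At 9 months against 3 months 2 of 9 rose, where 25.0% of all genes changed and 11.3% rose. The same 2 were higher without overlap, as were 5.52% of all genes. Along the trend 2 of 9 rose, where 29.5% of all genes changed and 14.7% rose. At 9 months against 6 months 3 of 9 rose, where 17.2% of all genes changed and 7.44% rose, and Ltbp1 and Klf10 were higher without overlap, as were 4.36% of all genes. At 6 months against 3 months none of the 9 passed, as 3 of all genes did (0.0193%). Ltbp2 and Klf10 had an unadjusted p below 0.05, as did 9.85% of all genes, and Klf10 was lower without overlap, as were 1.86% of all genes. At 12 months against 9 months edgeR called no gene (0.0%), with 2152 (13.9%) at an unadjusted p below 0.05, Tgfbr3 and Klf10 among them, and DESeq2 called 252. Klf10 was there lower without overlap, as were 1.11% of all genes.

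**Figure D4:**
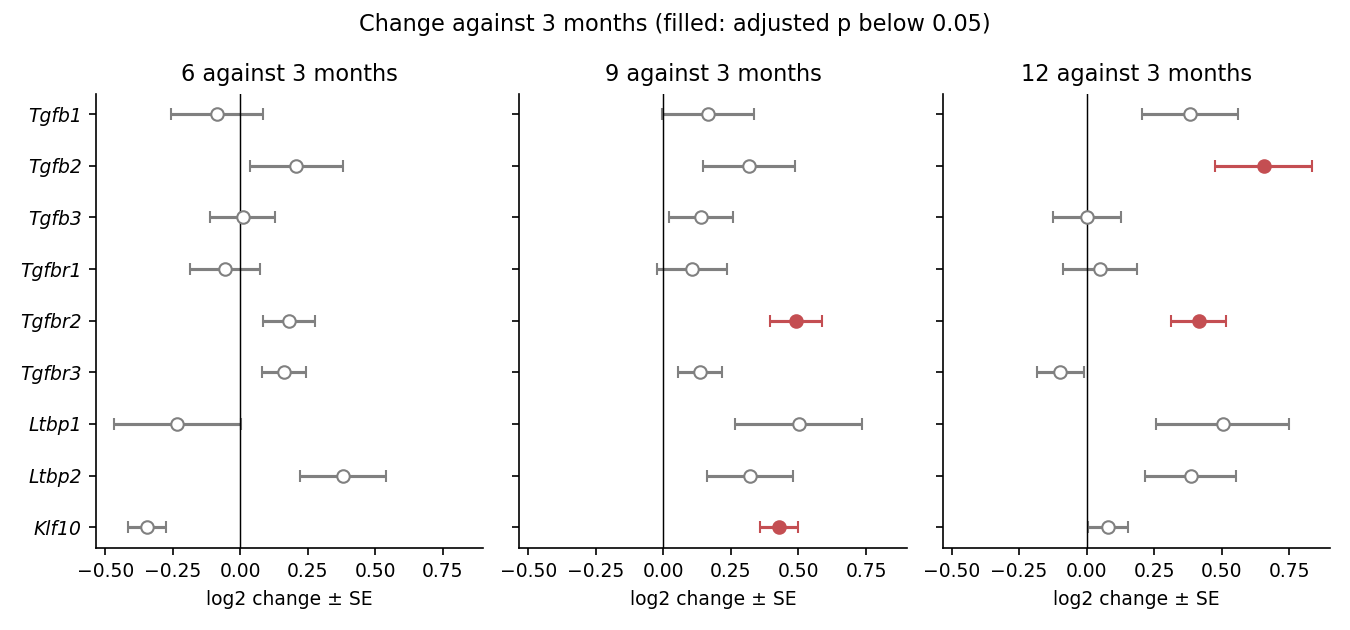
Log2 change (horizontal axis, bars ± SE) of each of the 9 genes at 6, 9 and 12 months against the same 3 month libraries, with filled points for an adjusted p below 0.05. Tgfb2 at 12 months stands at 0.66, Tgfbr2 at 0.49 and 0.41 at 9 and 12 months, and Klf10 lies on the left at 6 months and on the right at 9 months.

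Smooth muscle and oviduct transcripts also moved with age. Of 9 smooth muscle and pericyte genes tested 5 rose at 12 months, their summed level was 1908 to 3848 CPM at 12 months against 1332 to 1946 CPM at 3 months, and the defining gene Acta2 is listed at 0 in every library. Of 8 oviduct genes tested 3 rose, with summed levels of 2482 to 5394 CPM at 12 months against 1859 to 2988 CPM at 3 months. In settings added after seeing the data, Tgfb2 at 12 months changed by 0.34 with the smooth muscle list as a covariate (edgeR adjusted p = 0.361), by 0.55 with the oviduct list (edgeR adjusted p = 0.105) and by 0.54 with the macrophage list (edgeR adjusted p = 0.122). Tgfbr2 at 12 months changed by 0.37 with the smooth muscle list (edgeR adjusted p = 0.122) and by 0.34 with the oviduct list (edgeR adjusted p = 0.065). At 9 months against 3 months the smooth muscle list left Tgfbr2 at 0.43 (edgeR adjusted p = 0.153), and the macrophage list left Klf10 at 0.32 (edgeR adjusted p = 0.0534). With the macrophage covariate Ltbp1 passed at 12 months (0.98, edgeR adjusted p = 0.0154) and at 9 months (1.15, edgeR adjusted p = 0.0213) against 3 months, as did Tgfbr3 at 12 months (-0.28, edgeR adjusted p = 0.0358). Tgfb1 passed at 12 months with the oviduct covariate (0.61, edgeR adjusted p = 0.0413). The smooth muscle covariate reduced the calls among all genes at 12 months to 230, against 3475 without it. What part these tissues have in the members' values was not tested.

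The wider pathway was described from 4 lists, whose counts at 12 months stand beside the 10.9% of all genes that rose and the 11.5% that fell. With the smooth muscle list as a covariate none of the 4 lists had a rising gene at 12 months, and 230 genes of all were called. That covariate is the mean log2 level of a list that holds Tagln and Cnn1. Both are also target genes here, so the setting cannot judge them. Of 22 tested genes that hold TGF-beta latent or release it, 4 rose and 3 fell at 12 months, with a median log2 change of 0.11. The rising genes numbered 2 with the oviduct and 1 with the macrophage list as a covariate. Ltbp4, a latent binding protein of elastic fibres, had 394, 371, 471 and 359 CPM at 12 months against 267, 287, 267, 315 and 253 CPM at 3 months. The ages did not overlap, and Ltbp4 rose by 0.52 ± 0.11 (edgeR adjusted p = 0.00357). Fn1, the matrix protein fibronectin, rose by 0.54 ± 0.14 (edgeR adjusted p = 0.0137), and not without 12 month replicate 3 (0.39, edgeR adjusted p = 0.0646). Nrros, listed as Lrrc33, anchors latent TGF-beta on myeloid cells and rose by 0.71 ± 0.20 (edgeR adjusted p = 0.0178), but did not pass without 12 month replicate 2 (0.41, edgeR adjusted p = 0.0905).

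Among genes that free the ligand, Thbs1 and Itgav fell. Thbs1 encodes thrombospondin 1, an activator of latent TGF-beta, and had 408, 466, 352 and 463 CPM at 12 months against 602, 650, 773, 863 and 616 CPM at 3 months. All 12 month libraries were lower, and Thbs1 fell by 0.73 on the log2 scale (SE 0.12, edgeR adjusted p = 0.00104). Itgav, the integrin alpha V chain that pulls on the latent complex, had 285, 243, 273 and 248.8 CPM at 12 months against 327, 313, 343, 336 and 376 CPM at 3 months. It was also lower in all 12 month libraries, with a log2 change of -0.37 ± 0.06 (edgeR adjusted p = 0.000878). The other gene of the list that fell was Fbn2. Mmp2, Mmp9, Mmp14 and Furin, proteases of the same list, did not pass at 12 months, while Mmp9 and Mmp14 rose at 9 months against 3 months.

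Of 14 co-receptors and extracellular binders 3 rose and none fell at 12 months, with a median log2 change of 0.27, and 8 rose at 9 months against 3 months, where 11.3% of all genes did. With the oviduct covariate 1 rose at 12 months, and with the macrophage covariate 2. The 9 month count ran from 0 to 8 over the 12 settings other than the fits that left out a library each. Bambi, a pseudoreceptor that lacks a kinase, had 58.9, 44.3, 56.6 and 38.6 CPM at 12 months against 26.3, 31.8, 34.2, 33.7 and 36.1 CPM at 3 months. The ages did not overlap, and the log2 change of Bambi was 0.61 ± 0.12 (edgeR adjusted p = 0.00311). Eng and Acvrl1, the endothelial co-receptor and type I receptor, rose by 0.39 ± 0.11 and 0.35 ± 0.10 (edgeR adjusted p = 0.0205 and 0.015). Eng is also 1 of 9 endothelial marker genes, of which 4 rose, and their summed level was 493 to 560 CPM at 12 months against 395 to 446 CPM at 3 months. Acvrl1 did not pass without 12 month replicate 3 (0.30, edgeR adjusted p = 0.0609), nor did Eng when replicate 5 of 3 months or replicate 3 or 4 of 12 months was left out (0.26 to 0.37, edgeR adjusted p = 0.0528 to 0.0871). Without 12 month replicate 3 the count of the list was 1, and without 12 month replicate 1 it was 5. Cd109 and Hspg2 rose along the trend, by 0.66 ± 0.21 and 0.42 ± 0.13 (edgeR adjusted p = 0.0227 and 0.0249). Without 3 month replicate 5 Cd109 did not pass (edgeR adjusted p = 0.0539), and neither did Hspg2 without 3 month replicate 1 or 12 month replicate 4 (edgeR adjusted p = 0.0631 and 0.07).

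Of 29 SMADs and SMAD regulators tested, 7 fell and none rose at 12 months, with a median log2 change of -0.13. The falling genes numbered 1 with the smooth muscle, 6 with the oviduct and 5 with the macrophage covariate. Smad3, a receptor-activated SMAD, had 92.0, 95.2, 86.8 and 111 CPM at 12 months against 118, 130, 136, 127 and 122 CPM at 3 months. It was lower in all 12 month libraries, with a log2 change of -0.39 ± 0.08 (edgeR adjusted p = 0.00261). Smad4, the shared partner SMAD, had 140, 145, 134 and 139 CPM at 12 months against 175, 165, 166, 162 and 182 CPM at 3 months, a log2 change of -0.29 ± 0.05 with no overlap (edgeR adjusted p = 0.00184). Smad2, the other receptor-activated SMAD of the pathway, changed by -0.31 ± 0.07 (edgeR adjusted p = 0.00531), and Trim33, which binds activated SMAD2 and SMAD3, by -0.39 ± 0.06 (edgeR adjusted p = 0.000715). Usp9x, a deubiquitinase of SMAD4, changed by -0.28 ± 0.06 (edgeR adjusted p = 0.00547), and by -0.09 with length and GC offsets (edgeR adjusted p = 0.254). The remaining 2 that fell were Smad7 and Sp1.

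Of 31 tested genes known as TGF-beta targets, 6 rose and 1 fell at 12 months, with a median log2 change of 0.17. At 9 months against 3 months 14 rose, where 11.3% of all genes did. This 9 month count ran from 0 to 15 over the 12 settings other than the fits that left out a library each. With the oviduct and with the macrophage covariate 1 rose at 12 months. Tagln, an actin-binding protein of smooth muscle, rose by 0.73 ± 0.19 (edgeR adjusted p = 0.0111), and not without 12 month replicate 3 (0.54, edgeR adjusted p = 0.0534). Tgm2, a transglutaminase, rose by 0.42 ± 0.10 (edgeR adjusted p = 0.00748). Col1a1, Cnn1 and Ltbp4 also rose, and Thbs1 fell. Tagln and Cnn1 are also markers of smooth muscle, Col1a1 of stroma, and Ltbp4, Tgm2 and Thbs1 are in the latency list too. Without 12 month replicate 3 the count of rising targets at 12 months was 3.

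**Figure D5:**
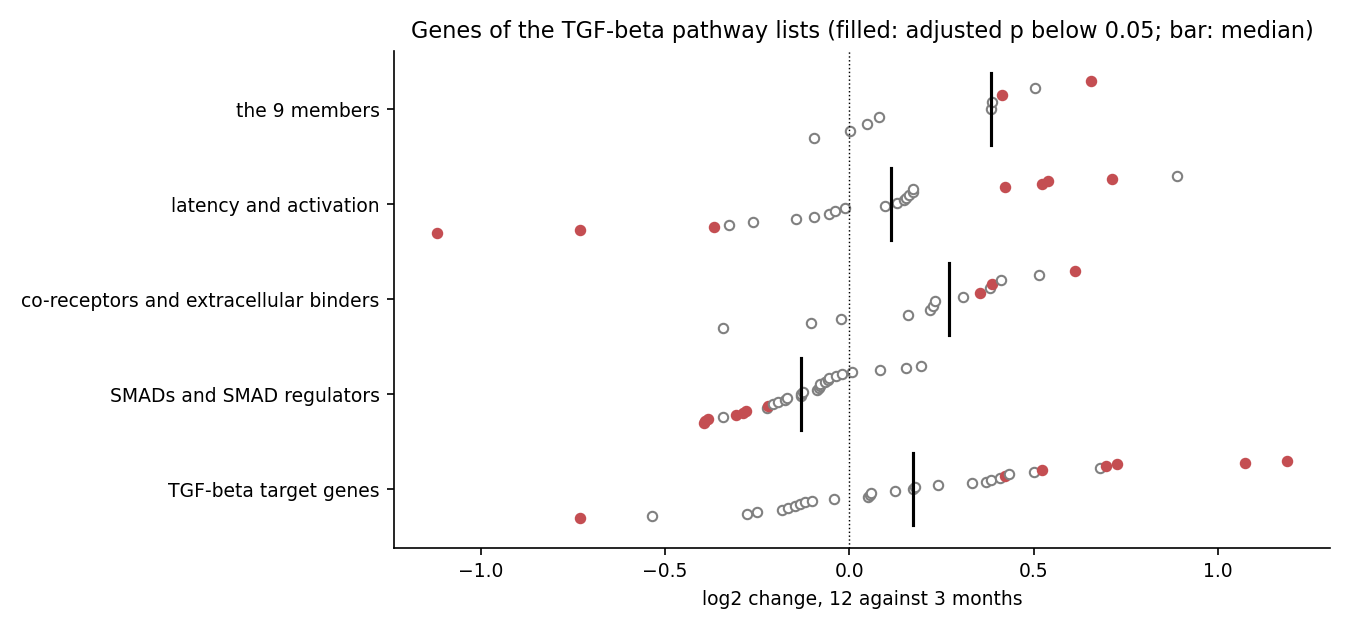
Log2 change at 12 months against 3 months (horizontal axis) of the 9 members and of the genes of 4 pathway lists, with a point per gene, filled for an adjusted p below 0.05, and a bar for the median. The SMAD list has 7 filled points, all left of 0, and the co-receptor list 3, all right of 0.

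Over the 19 libraries the patterns nearest to the remaining members were as follows, as descriptions in which all points share the same libraries. Tgfb1 was most like Cadm4 and Mbp, a cell adhesion and a myelin gene (Pearson r of 0.90 each on log2 CPM). Tgfb2 was most like Msrb2, a methionine sulfoxide reductase (0.92), and Hsd17b11, a hydroxysteroid dehydrogenase (0.91). Tgfb3 was most like the translation factor gene Eif4b (0.87) and Rab11fip5 (0.85), and Tgfbr1 like Hacd3, listed as Ptplad1, and Sesn3 (0.84 each). Tgfbr3 was most like Tmem131 and Arrb1 (0.86 each), and Ltbp2 like Znfx1 (0.80) and Fam117a (0.76). After Saa2, the gene most like Ltbp1 was the noncoding RNA 9330133O14Rik (0.88).

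The position of 7 of the 9 members overlaps another RefSeq gene, a noncoding RNA for Tgfb2, Tgfbr1, Tgfbr2, Ltbp2 and Klf10 and a pseudogene for Tgfbr3 and Ltbp1. The library kit was a directional one, per the labels, but whether counting used it is not given in the sources used here, so reads of these pairs may not be told apart.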

How the data were processed

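RNA of whole ovaries was sequenced as libraries made with a directional kit, per the labels' protocols. The submitters' processing notes name mm10, while aligner and counter are not given in the sources. The raw table that the authors deposited holds estimated counts, fractions of a read included (17.4% to 21.4% of the nonzero values of a library are exactly whole). The estimated counts were rounded before testing. The authors also deposited log2 values, whose normalization the sources do not give, and which served for an alternative. A further column in each of the 2 tables used matches no sample (1 per table) and was not used. Libraries were grouped by the age label and matched to columns by title.

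Counts were tested with edgeR 4.0.16 in R 4.3.3 (quasi-likelihood, robust, TMM scaling, minimum count 10, minimum total 15, a mean per age over all 19 libraries), and the script was tested on simulated data. The trend is the change over 9 months. P-values were adjusted by Benjamini-Hochberg over 15518 genes in each of 6 comparisons. Lengths came from GENCODE transcripts matched by NCBI gene ID. Counts of libraries of an age differed by more than counting noise (chi-square per degree of freedom 5.11 to 38.9), so no libraries were merged. This does not tell separate mice from separate preparations of the same RNA. Alternatives used limma 3.58.1, DESeq2 1.42.0, other scaling, filters and covariates, and 19 fits that left out a library each.

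The members and gene lists were chosen with earlier results of these data known. Besides the 9 members, the text names up to 5 genes of each pathway list that passed and had the lowest p-values for 12 months or for the trend, and for each member the 2 genes with the highest Pearson r of log2 CPM (prior count 2, mean of at least 1 CPM, predicted genes left out). Other list genes are named without values, to account for the counts, and were chosen after their values were seen. Plg, Foxh1, Ldlrad4 and Acta2 were listed and not tested, and of all lists 2 entries had no row in the table. A gene that the rule names among the target genes is not reported here.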

Additional observations from a re-analysis of the deposited data

Results flagged for a closer look

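In groups of 4 or 5 libraries, the highest or lowest library was set against Dixon's 95% critical value for 27 genes at 4 ages, 108 groups in all. It was exceeded in 5 groups, where chance gives about 1 in 20, and in none of the 36 groups of the members. Itgav in 6 month replicate 1 was the highest of its age at 324 CPM, with the others at 310.0 to 314 CPM. Lrrc33 (Nrros) in 12 month replicate 2, a library with lymph node transcripts, had 23.9 CPM, with the others at 11.8 to 13.8 CPM. Hspg2 in 3 month replicate 1 was the lowest at 194 CPM (others 240.0 to 251.0 CPM). Smad2 in 12 month replicate 2 was the highest at 91.1 CPM (others 84.8 to 85.2 CPM). Usp9x in 9 month replicate 2 was the highest at 479 CPM (others 387 to 411 CPM). The causes were not tested.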

How the results depend on the processing

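No paired analysis was possible because the labels give the ages no shared replicate numbers. The count of all genes called at 12 months against 3 months was 3475. It became 1284 with the oviduct, 230 with the smooth muscle and 1528 with the macrophage list as a covariate. At 9 months against 3 months it was 3872, and became 108 with the smooth muscle and 670 with the macrophage covariate. Without the 2 libraries highest in liver transcripts it became 1644. At 9 months against 6 months it was 2676, and became 297, 1154 and 931 in the 3 settings just named for 9 against 3 months. Along the trend it was 4576, and became 157 and 1342 with the smooth muscle and macrophage covariates. At 6 months against 3 months the 3 calls became 34 with only the ages compared, 8 without the 3 lymph node libraries, 174 with limma-voom, 0 with the authors' log2 values, 47 with DESeq2 and 1 with the macrophage covariate. At 12 months against 9 months the 0 calls became 252 with DESeq2, 16 with the smooth muscle and 1 with the macrophage covariate.

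With the oviduct covariate 1 member was called at 12 months against 3 months, Tgfb1, and neither Tgfb2 nor Tgfbr2 passed. The macrophage covariate gave 2, Ltbp1 and Tgfbr3, again without Tgfb2 and Tgfbr2. The smooth muscle covariate gave 0. Along the trend 4 were called with the oviduct and 0 with the smooth muscle covariate. With the macrophage covariate Ltbp1 and Tgfbr3 passed along the trend, and Tgfb2 and Tgfbr2 did not. At 9 months against 3 months 1 member was called with the smooth muscle covariate, Klf10. With the macrophage covariate the 1 called was Ltbp1, and neither Tgfbr2 nor Klf10 passed. At 9 months against 6 months 1 member, Klf10, was called with the authors' log2 values and with the smooth muscle covariate. Klf10 was also the 1 called without the 2 libraries highest in liver transcripts. At 6 months against 3 months 1 was called by limma-voom and by DESeq2, and at 12 months against 9 months 1 by DESeq2 and with the smooth muscle covariate.

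Leaving out each library gave 2124 to 3806 calls and 1 to 3 members at 12 months against 3 months, 2784 to 4484 and 2 to 3 at 9 against 3, 0 to 5 and 0 at 6 against 3, 1721 to 3212 and 1 to 3 at 9 against 6, 0 to 278 and 0 to 1 at 12 against 9, and 3798 to 4853 and 2 to 4 along the trend.

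The sign of Tgfb3 at 12 months against 3 months turned with length and GC offsets (-0.10), only the ages compared (-0.0045), no lymph node libraries (-0.0196), limma-voom (-0.0524), the authors' log2 values (-0.0098) and the macrophage covariate (-0.10), and leaving out a library gave -0.089 to 0.0837. Its trend turned with length and GC offsets (-0.0562), with the macrophage covariate (-0.11) and without the 2 libraries highest in liver transcripts (-0.0053). Tgfbr1 at 12 months against 3 months turned with limma-voom (-0.0104) and ran from -0.0727 to 0.144 when a library was left out. The causes were not tested. In simulated counts for 12 months against 3 months (15327 genes tested), the test called 16 of 67 genes made to differ 1.5-fold, 57 of 67 at 2-fold and 63 of 66 at 4-fold. It also called 6 genes not made to differ. The simulated counts had the same spread for all genes and ages. In the data the biological coefficient of variation was 13.5%, 11.4%, 22.6% and 23.7% at 3, 6, 9 and 12 months. These counts therefore do not give the share of changes found in the data.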
